A study of Drosophila melanogaster with 3 samples.

Results

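Of the 9593 intervals in the IDR list of CG2712 peaks in Drosophila melanogaster embryos, 193 held 2 or more peak summits, and these 193 intervals are described here. IDR, the irreproducible discovery rate, is a way to keep the peaks that rank alike in replicates. The 193 were chosen by their coordinates: an interval was taken when its chromosome, start and end stood in the list more than once with different summits. They took 389 of the 9789 lines, 190 of them held 2 summits and 3 held 3. The other 9400 intervals held 1 summit each and serve for comparison. The list came from chromatin immunoprecipitation with sequencing (ChIP-seq) with an anti-GFP antibody on whole embryos, aged 0 to 16 hours and of both sexes, that carried a transgene for CG2712 with GFP at its C terminus. The 3 biological replicates were of this 1 group, with no untagged group and no second condition among the samples, and each was called against 1 control. The tagged copy stands in for the protein, and a collection over 16 hours averages all embryonic tissues and stages. Summit positions, signals and widths chose the intervals or came from the same call, so they are given as a description with no test. Tests were run on gene annotation and DNA sequence, which the choice did not use. Some sequence windows were placed by the second summit, whose position the choice did use, and values there are a description.

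A ChIP-seq peak is a stretch of genome where immunoprecipitated fragments pile up, and its summit is the point where the pile is highest. A caller can give several summits to 1 stretch when the pile has more than 1 maximum. Many Drosophila genes start next to a neighbour that is transcribed the other way, and such a divergent pair shares the DNA upstream of both starts.

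The DNA of the intervals tended to be rich in A and T from the stronger summit towards the weaker one, and this is shown first by sequence. Each line runs from 25 bases before the stronger summit to 25 bases past the weaker summit, 5′ to 3′ on the plus strand of build dm6 (RefSeq sequence), and runs of 8 or more A or T letters are in capitals. The lines are the 4 strongest intervals with summits at most 210 bp apart, leaving out 1 chromosome arm and stretches that touch an annotated UTR. The first lies in an exon of the non-coding RNA lncRNA:Vinr on X at chrX:12751106-12751355, and the second in an intron of CG9663 at chr2L:3302174-3302423. The label of the first line is the gene with the nearest start, lncRNA:CR44619, and both summits were upstream of that start. The third lies upstream of a start of the tyrosine kinase gene Btk at chr2L:8277819-8278075. The fourth lies upstream of a start of CG31886 at chr2L:8958167-8958418. The stronger summits of the third and the fourth were inside these genes.
lncRNA:CR44619: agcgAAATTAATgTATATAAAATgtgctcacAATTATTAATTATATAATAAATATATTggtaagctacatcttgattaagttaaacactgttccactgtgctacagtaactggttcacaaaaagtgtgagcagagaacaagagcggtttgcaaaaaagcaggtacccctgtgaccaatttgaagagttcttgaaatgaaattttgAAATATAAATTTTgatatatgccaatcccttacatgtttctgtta
CG9663: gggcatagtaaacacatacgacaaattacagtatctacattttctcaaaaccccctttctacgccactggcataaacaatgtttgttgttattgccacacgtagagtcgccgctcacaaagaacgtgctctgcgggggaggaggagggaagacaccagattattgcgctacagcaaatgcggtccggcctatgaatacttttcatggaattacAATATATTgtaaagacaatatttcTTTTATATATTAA
Btk: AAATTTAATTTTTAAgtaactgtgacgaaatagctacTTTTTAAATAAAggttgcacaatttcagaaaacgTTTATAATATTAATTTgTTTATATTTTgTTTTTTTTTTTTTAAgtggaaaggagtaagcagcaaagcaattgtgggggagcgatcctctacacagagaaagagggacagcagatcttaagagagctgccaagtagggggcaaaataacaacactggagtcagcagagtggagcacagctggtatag
CG31886: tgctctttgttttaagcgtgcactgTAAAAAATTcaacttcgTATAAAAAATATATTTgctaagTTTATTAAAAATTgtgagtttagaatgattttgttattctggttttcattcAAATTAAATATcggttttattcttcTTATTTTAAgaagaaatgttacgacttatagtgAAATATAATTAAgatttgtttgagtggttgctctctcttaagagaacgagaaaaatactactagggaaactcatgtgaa

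These stretches had 4, 2, 5 and 6 such runs, the longest of 27, 13, 16 and 16 letters, and GC contents of 31.2%, 40.8%, 35.8% and 26.6%. At Btk the 5 runs stood in the part next to the stronger summit, and at CG9663 both stood next to the weaker one. For comparison, the next 2 lines run from 25 bases before a single summit to 225 bases past it, at the intervals with 1 summit whose signal was closest to those of the first 2 lines. One lies nearest to the start of the histone demethylase gene Kdm2 at chr3R:9057515-9057765 and the other nearest to that of CG1142 at chr3R:7473916-7474166. They had 5 and 4 runs and GC contents of 35.5% and 32.7%, so single examples do not separate the kinds of interval and the difference below is one of means. The last line gives the bases within 50 bp of the stronger summit of the strongest of the 193. It lies at chrX:2137270-2137370, upstream of a start of the Polycomb gene ph-p and inside the gene.
Kdm2: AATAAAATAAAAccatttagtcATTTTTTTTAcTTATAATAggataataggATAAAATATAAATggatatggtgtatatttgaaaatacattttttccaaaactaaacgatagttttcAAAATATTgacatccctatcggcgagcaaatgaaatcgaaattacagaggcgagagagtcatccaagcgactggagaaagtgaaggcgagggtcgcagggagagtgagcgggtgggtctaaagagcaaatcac
CG1142: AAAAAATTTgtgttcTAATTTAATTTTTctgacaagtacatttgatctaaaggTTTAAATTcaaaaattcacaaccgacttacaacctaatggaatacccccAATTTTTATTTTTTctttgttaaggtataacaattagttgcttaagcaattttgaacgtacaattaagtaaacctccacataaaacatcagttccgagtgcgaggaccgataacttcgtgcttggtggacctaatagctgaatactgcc
ph-p: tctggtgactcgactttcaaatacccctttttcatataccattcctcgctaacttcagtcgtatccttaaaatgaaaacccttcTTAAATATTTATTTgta

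The GC content was lowest near the strongest summit and rose unevenly away from it in the 156 intervals with summits 199 to 210 bp apart. The points compared here were placed by where the second summit lay, which the choice of intervals used, and single summits also lay in DNA of lower GC content than their surroundings. The values are therefore a description, with no test, and were chosen after they were seen. Within 25 bp of the midpoint between the summits GC averaged 31.2%, against 38.6% at 100 bp from a single summit on a random side, a difference of -7.39 points (95% interval -9.25 to -5.54, n = 156 and 9400). At the weaker summit it averaged 37.8%, against 42.8% at 200 bp from a single summit, a difference of -5.01 points (-6.88 to -3.14). On the other side of the stronger summit, 200 bp away, it averaged 45.0% beside the same 42.8%, a difference of 2.17 points (0.302 to 4.03). With log2 width and log2 signal as covariates the differences were -7.66, -5.99 and 1.17 points, the last with an interval of -0.732 to 3.07.

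**Figure D1:**
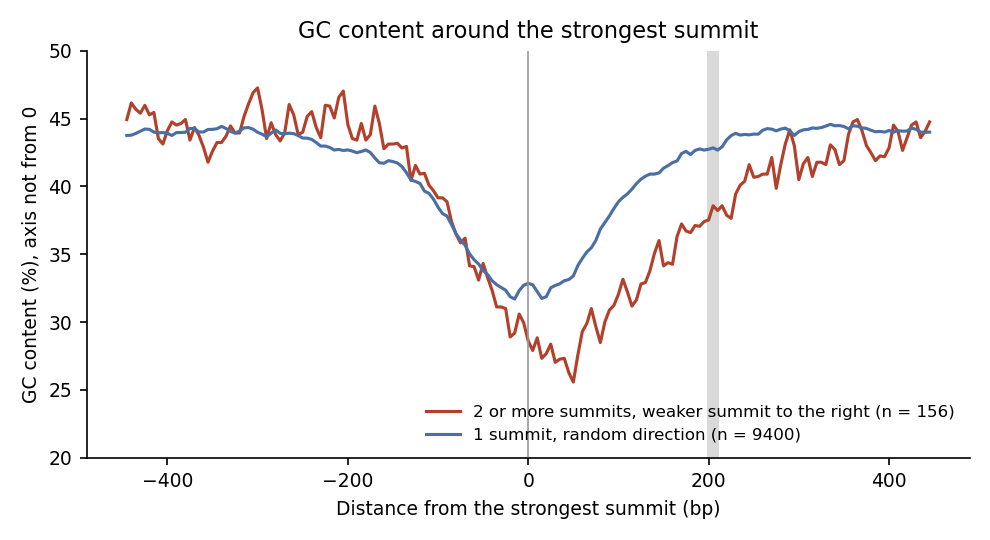
Mean GC content (%, axis not from 0) by distance (bp) from the strongest summit, for the 156 intervals with 2 or more summits 199 to 210 bp apart (red, weaker summit to the right, its range of positions in grey) and the 9400 intervals with 1 summit (blue, random direction). The red line runs below the blue one from the summit towards the weaker summit and close to it further out on the left.

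Within the same interval, the stronger summit lay in DNA of lower GC content than the weaker summit. Over all 193 intervals the median within 25 bp was 29.4% at the stronger summit, 39.2% at the weaker summit and 29.4% at the midpoint, and 45.1% at 300 bp outside either summit. GC was lower at the stronger summit in 134 intervals and higher in 52. It was lower at the midpoint than at the weaker summit in 125 intervals and higher in 61. Between midpoint and stronger summit the sign of the difference was mixed, with the midpoint lower in 83 intervals (exact sign test, p = 0.186). Runs of 12 or more A or T letters were also counted between 25 and 175 bp from the stronger or single summit. Towards the weaker summit 87 of 156 intervals had one (55.8%, exact 95% interval 47.6 to 63.7), and on the other side 62 did (39.7%). On a random side 3667 of 9400 intervals with 1 summit did (39.0%). For runs of 8 or more letters these shares were 89.1%, 76.3% and 79.8%. The second summit set the points and the direction, so the values in this paragraph are a description with no test.

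The lower GC content at the strongest summit itself held against the wider single-summit intervals, and not once width and signal were both taken into account. Within 50 bp it averaged 29.6% in intervals with 2 or more summits and 32.6% in those with 1, a difference of -2.99 points (-4.39 to -1.58, p = 3.2e-05, F test, n = 193 and 9400). Against the 3834 single-summit intervals at least as wide as the 10th percentile of the others it was -3.82 points (p = 5.6e-07, n = 193 and 3834). With log2 width and log2 signal as covariates it was 0.206 points (-1.20 to 1.61, p = 0.773, n = 193 and 9400), and among intervals above the median signal of the list, which held 189 of the 193, it was -0.606 points (p = 0.358, n = 189 and 4617). The weaker summits, set against single summits with their own log2 signal as a covariate, had a GC content 5.03 points higher (3.66 to 6.40, n = 193 and 9400). They lay at least 199 bp from a stronger summit, a position that the choice used, so this is a description with no test. Within 25 bp of points 200 bp from a single summit GC averaged 42.8%, above the 37.8% at weaker summits of the 156 intervals.

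The summits of an interval were nearly always about 200 bp apart. The distance between the 2 strongest summits had a median of 203 bp (quartiles 200 and 208) and ran from 199 to 683 bp. It was exactly 199 bp in 33 intervals and exactly 200 bp in 29, at most 210 bp in 156, and over 300 bp in 6. The smallest distance between neighbouring summits was 199 bp in the IDR list, in the list called on all replicates together and in each of the 3 replicate lists. In the IDR list 438 neighbouring summits lay 199 to 210 bp apart, of which 156 shared an interval and the others stood in intervals of their own. A spacing of about 200 bp was therefore not limited to the intervals described here, and closer summits were listed nowhere. The labels list library sizes of 200 to 800 (unit not stated), whose part in the spacing was not tested.

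**Figure D2:**
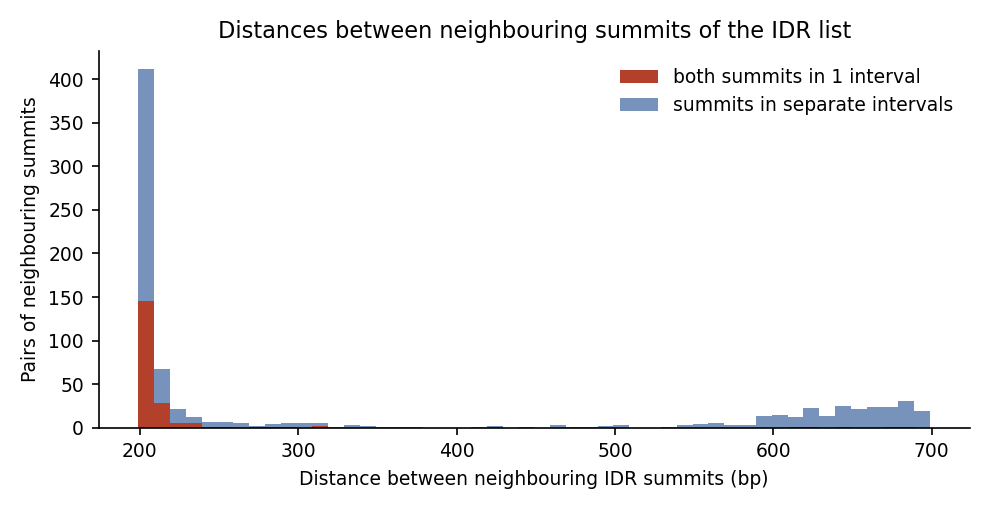
Number of pairs of neighbouring summits of the IDR list by their distance (bp, bins of 10 bp), stacked for pairs in 1 interval (red) and in separate intervals (blue). Both kinds pile up in the first bin, which starts at 199 bp, and no pair is closer.

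The signal, the enrichment that the authors' caller gave a summit, was uneven within an interval. It ran from 350.0 to 7735 at the stronger summit (median 1226) and from 206.4 to 5585 at the weaker (median 365), against a median of 406 at single summits. The stronger summit had a median of 2.72 times the signal of the weaker, more than 3 times in 87 intervals and under 1.5 times in 24. The most even pair lay by lncRNA:CR45737, with 1614 and 1596, and the least even by cib, the gene of the actin-binding protein ciboulot, with 2707 and 209.6, a ratio of 12.9. Intervals with 2 or more summits were 310 to 1365 bp wide (median 517), and those with 1 summit 106 to 1914 bp (median 349). The lower end of the list shaped the choice: 174 intervals with 1 summit here had a second one in the list of all replicates together, at signals of 44.8 to 205.5, while the lowest second signal among the 193 was 206.4 and the lowest signal in the IDR list was 206.2.

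**Figure D3:**
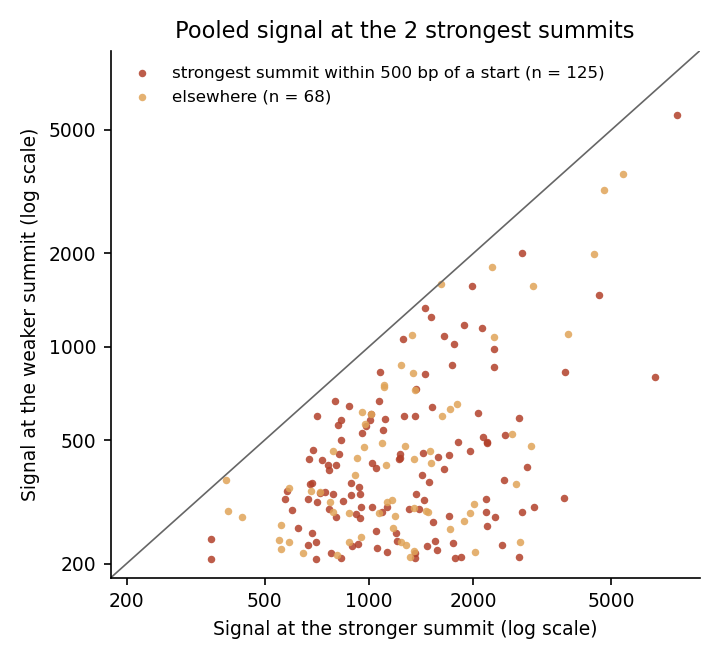
Signal at the weaker against the signal at the stronger summit (log axes, authors' units) of the 193 intervals, for those with the strongest summit within 500 bp of a gene start (red) and elsewhere (yellow), with the line of equal signal. The points end at about 206 on the vertical axis, the lowest signal in the list, and ph-p stands at the upper right with 7735 and 5585.

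Intervals with 2 or more summits lay at gene starts more often than intervals with 1 summit. The strongest summit was within 500 bp of a transcript start in 125 of 193 (64.8%, exact 95% interval 57.6 to 71.5) and in 4267 of 9400 with 1 summit (45.4%), where all 9593 intervals together had 45.8%. The odds ratio was 2.21 (1.64 to 2.98, likelihood-ratio test in a logistic regression, p = 8.5e-08, n = 193 and 9400). With log2 width and log2 signal as covariates it was 1.60 (p = 0.00216, n = 193 and 9400). Starts of 2 or more genes lay within 500 bp in 61 (31.6%), against 1596 with 1 summit (17.0%) and 17.3% of all intervals, an odds ratio of 2.26 (p = 9.4e-07, n = 193 and 9400) and, with the covariates, of 1.52 (p = 0.0119, n = 193 and 9400). A divergent pair, a minus-strand start followed within 1000 bp by a plus-strand start of another gene, was near 67 (34.7%), against 1772 with 1 summit (18.9%) and 19.2% of all intervals. Its odds ratio was 2.29 (p = 2.8e-07, n = 193 and 9400) and, with the covariates, 1.64 (p = 0.00251, n = 193 and 9400). The 3 measures overlap, since a divergent pair is also a pair of starts. Among the 37 intervals with summits over 210 bp apart none of the 3 passed, with odds ratios of 1.58, 1.14 and 1.00.

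**Figure D4:**
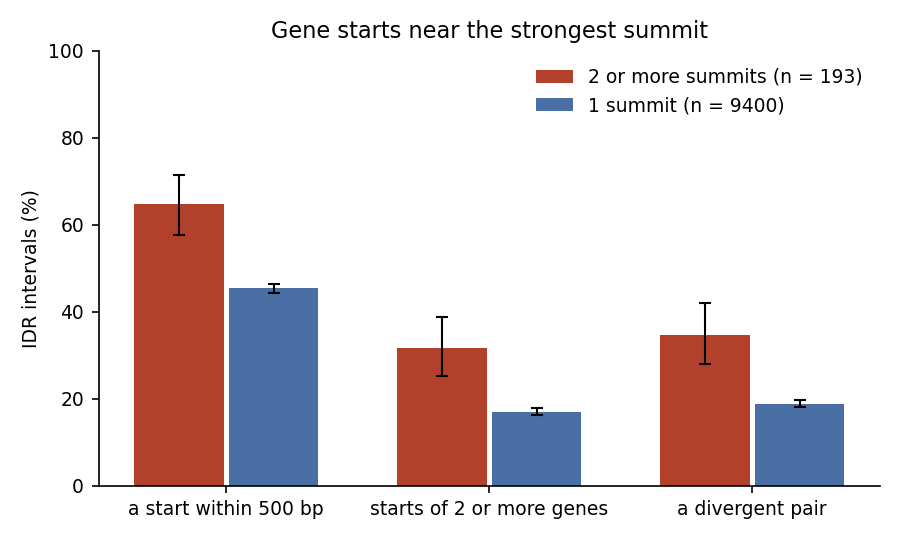
Share of intervals (%) whose strongest summit had a gene start within 500 bp, starts of 2 or more genes, or a divergent pair, for 193 intervals with 2 or more summits (red) and 9400 with 1 summit (blue); bars are shares and lines their exact 95% intervals from counting. The red bars stand at 64.8%, 31.6% and 34.7%, above the blue ones at 45.4%, 17.0% and 18.9%.

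Applied to the 9789 strongest lines of each replicate list, the same rule found 34, 191 and 147 intervals with 2 or more summits in replicates 1, 2 and 3, of which 17, 93 and 66 overlapped the 193. Their share within 500 bp of a start was 55.9%, 61.3% and 59.9% (mean 59.0 ± 2.79, SD, n = 3), against 44.4%, 45.0% and 49.6% (46.4 ± 2.86) for intervals with 1 summit. The share with a divergent pair was 35.3%, 28.3% and 29.9%, against 19.6%, 18.8% and 20.9%. The share with starts of 2 or more genes was 35.3%, 25.1% and 27.9%, against 17.4%, 17.0% and 18.9%. All 3 shares were higher for intervals with 2 or more summits in every replicate. The IDR list was made from these replicates, so they are no separate test.

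At protein-coding starts, the stronger summit lay further upstream than a single summit did. The median distance from the nearest start was -180 bp (quartiles -249 and -117) for the stronger summit of 118 intervals, -115 bp (-330 and -15) for the weaker, and -94 bp (-174 and -24) for 4012 single summits, where negative values are upstream. The means were -182 bp for the stronger summit and -102 bp for single summits, a difference of -79.1 bp (-106 to -51.9, n = 118 and 4012). With log2 width and log2 signal as covariates it was -49.9 bp (-77.7 to -22.0, n = 118 and 4012). The stronger summit was upstream in 109 (92.4%), against 82.8% of single summits. This comparison was chosen after the values were seen. It rests on summit positions, which the choice of intervals used, so it is a description with no test. In 70 of the 118 both summits had the same nearest gene, with the stronger further upstream in 32 and the weaker in 38, and both were upstream in 56, on either side of the start in 11 and downstream in 3. In the other 48 each summit had a different nearest gene.

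**Figure D5:**
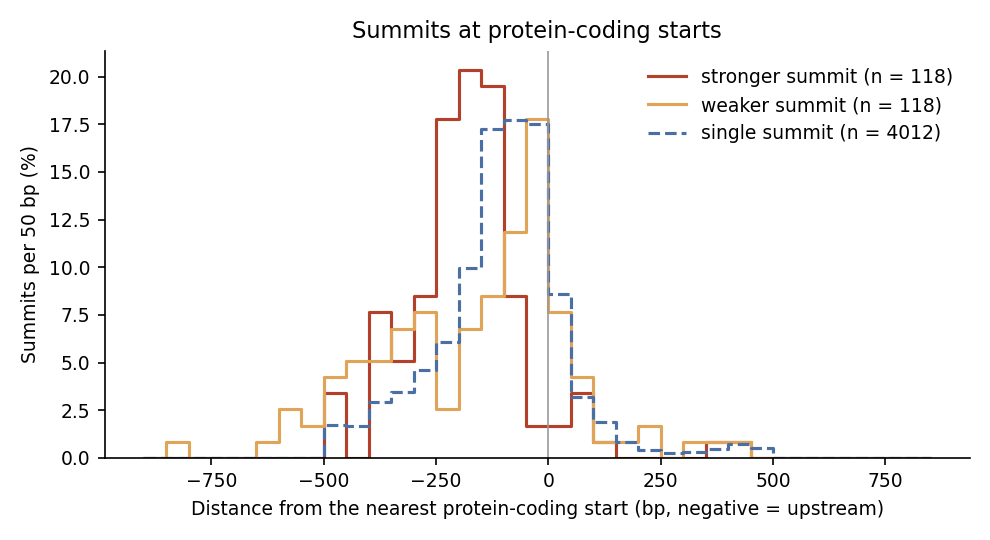
Share of summits (% per 50 bp) by distance (bp, negative is upstream) from the nearest protein-coding start, for the stronger (red) and the weaker (yellow) summit of 118 intervals with 2 or more summits and for 4012 single summits (blue, dashed), all with the strongest summit within 500 bp of such a start. Stronger summits peak further upstream (median -180 bp) than single ones (median -94 bp), and weaker summits spread to both sides of the stronger ones.

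At the 67 divergent pairs the summits mostly lay between the starts. In 49 of the 67 the summits were nearest to different starts of the pair, and in 47 both lay between the starts, in 13 only 1 did and in 7 neither did. The median distance to the nearer start was 158 bp for the stronger and 87 bp for the weaker summit, and the weaker was the nearer one in 49, which was not tested. The starts themselves were a mean of 451 bp apart (median 419), against 365 bp (median 313) at 1772 divergent pairs with a single summit. The difference was 86.1 bp (29.0 to 143, n = 67 and 1772), and 116 bp with the covariates (57.0 to 174, n = 67 and 1772). Where both summits lay between the starts, the gap had to hold 2 summits at least 199 bp apart. The choice of intervals thus bears on the gap, and the difference is a description with no test. The comparison of gaps too was chosen after the values were seen.

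The strongest such interval with a summit by each start, on 3L at 21031305 to 21031889, lay between CG10584 and Polr3E, which encodes a subunit of RNA polymerase III. Its signals were 2416 at 211 bp from the start of CG10584 and 229.8 at 23 bp from that of Polr3E. Next came CG3437 and CG3552, with 2295 and 858. The interval between Ino80, which encodes the ATPase of a chromatin remodeller, and Aptx, which encodes the DNA end repair protein aprataxin, had 1769 at 73 bp from Ino80 and 208 at 25 bp from Aptx. The pair Snx21, a sorting nexin, and aph-1, a subunit of gamma-secretase, had 1755 and 1020.3 at 151 and 207 bp. The stronger summit of Snx21 and aph-1 ranked 691st, 697th and 650th of 30000 in replicates 1, 2 and 3, and the weaker 1847th, 2046th and 1274th. Over these 4 pairs the stronger signal was 1.72 to 10.5 times the weaker.

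The strongest of the 193 intervals lay at ph-p, which encodes a subunit of Polycomb repressive complex 1, on X at 2136949 to 2138201. Its stronger summit ranked 18th in the IDR list, where single summits reached a signal of 40613. The summits were 621 bp apart, 465 bp upstream of the nearest start (7735) and 430 bp downstream of one (5585). The stronger ranked 16th, 16th and 20th and the weaker 35th, 34th and 52nd in replicates 1, 2 and 3, so both were among the strongest summits of every replicate. CG1888 on 2R had summits of 6669.8 and 802 at 239 and 439 bp upstream of its nearest start, and in replicate 1 the weaker had no summit within 50 bp. The exon interval by lncRNA:CR44619 on X had 5392 and 3599, 199 bp apart, which ranked 77th, 57th and 50th and 219th, 267th and 137th in the replicates. The intron of CG9663 held 4772 and 3194, also 199 bp apart. At scb, which encodes an integrin alpha chain, the summits were 676 bp apart, with 4597 at 132 bp upstream of the start and 1471 further out.

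Next in signal came an intergenic interval nearest to lncRNA:CR45643, with tara, a gene of the trithorax group, as the nearest coding gene and 3 summits of 4448, 1987 and 761. Adf1, a transcription factor gene, had 3750.15 and 1101 in an intron. The interval by lncRNA:CR44331, inside puc, which encodes a phosphatase of the JNK pathway, had 3689 and 828 at 609 bp apart. Those at koko and CG46429 had one strong summit each (3658 and 2989) and a weaker one of 326 and 304. An intron of bon, the gene of a TIF1-like chromatin cofactor, held 2971 and 1573, and an intron of sbb, a transcriptional corepressor gene, held 2944 and 478. Of these 12 strongest intervals, 6 had the strongest summit within 500 bp of a start, 5 in an intron or exon and 1 between genes.

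The remaining intervals with 3 summits lay at Kdm4B, a histone demethylase gene that starts divergently from the valyl-tRNA synthetase gene ValRS, with 2466, 519.7 and 271, and at chn, a zinc finger gene, with 1453, 1338 and 1244. Each replicate listed 2 or more summits within both intervals, but at chn the only one within 50 bp of the 2 strongest summits was that of replicate 3 at the stronger. The widest spacing, 683 bp, was in an intron of Diap1, a gene of a caspase inhibitor, with 2592 and 522. Next were scb, then the interval by CG31807 and grp, which encodes the checkpoint kinase Chk1, with signals of 831 and 582 at 643 bp apart, and then the one with tara. The strongest of the narrowest, at 199 bp, were those by lncRNA:CR44619, CG9663, Kdm4B and RapGAP1. The last had 2197 and 490.0 at 249 and 448 bp upstream of its nearest start. The lowest second signals, 206.4 at CG10283, 206.4 between dsd and Tusp, 208 between Ino80 and Aptx and 208 at RpL13A, lay beside stronger summits of 351, 702, 1769 and 1360.5. Each of these 4 had 2 or more summits in some replicates and 1 in others.

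Away from starts, 62 intervals had neither summit within 500 bp of a start, 116 had both and 15 had 1. The stronger summit was in an intron in 45 (23.3%, against 34.4% of single summits), intergenic in 15 (7.77%, against 18.0%), in other exons in 5, in a 5' UTR in 2, in a 3' UTR in 1 and in a coding exon in 0 of 193 (upper limit 1.55% from 3 counts). The intervals lay on 2L (33), 2R (43), 3L (46), 3R (43) and X (28), or 1.87%, 2.63%, 2.11%, 1.97% and 1.57% of the intervals of each arm, and on 4 there were 0 of 53 (upper limit 5.66%).

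By gene list, 188 of 13968 protein-coding genes (1.35%) had a start within 500 bp of a summit of these intervals, and 4785 (34.3%) only of single summits. Of 92 cytosolic ribosomal protein genes 7 did (7.61%), with 73 more only at single summits. Of these 7, 5 belonged to a divergent pair, where 34.7% of the 193 intervals had one near. The share among all 92 is not given, so the count is no trait of these 7. RpS27 and Nup37, a nucleoporin gene, had 1733 and 875 at starts 144 bp apart. RpL28 and the initiation factor gene eIF1 had 1069.5 and 669. RpL13A, beside Dph4, had 1360.5 and 208. The stronger summit at RpS27 ranked 687th, 723rd and 484th in replicates 1, 2 and 3 and the weaker 3188th, 2397th and 1787th. Of 73 mitochondrial ribosomal protein genes mRpS24 alone did (666), and of 25 Polycomb and trithorax genes ph-p and Su(z)12, which encodes a subunit of Polycomb repressive complex 2 (766 and 299, at its start and that of the prefoldin gene Pfdn6). Of 17 genes on a list for insulator proteins only Nup98-96, a nucleoporin gene, did. It had 1304 and 300.4 at its start and that of its divergent neighbour mbc. Of 40 patterning genes 0 did, with 13 at single summits only.

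No short sequence passed the test at the strongest summit. Exact matches on either strand to 11 known sequences and to 5 sequences of 8 bases found on single summits of 2L and 3L were counted within 50 bp, and 0 of 16 differed after Benjamini-Hochberg adjustment (logistic regression, 193 against 9400 intervals, or 5538 on other arms for the found sequences), with 2 at an unadjusted p under 0.05. The TATA box letters TATAAA were in 60 windows (31.1%), against 2363 single-summit windows (25.1%), with an adjusted p of 0.350. The found sequence ATATATAA was in 16 (8.29%), against 242 of 5538 (4.37%), with an adjusted p of 0.158. The letters GGTCACAC, bound by M1BP at many housekeeping promoters, were in 0 of 193 (upper limit 1.55% from 3 counts), against 161 of 9400 (1.71%), with an adjusted p of 0.158. With windows of 100 bp either side, TATAAA (52.3%, against 39.0%, adjusted p = 0.00354, n = 193 and 9400) and ATATATAA (27 windows or 14.0%, against 7.22%, adjusted p = 0.0118, n = 193 and 5538) passed. Both sequences are made of A and T, and in windows of that size the mean GC content was also lower (31.3%, against 34.4%).

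At the weaker summit 2 of 16 sequences had an adjusted p under 0.05 against single summits. The second summit, which the choice used, placed the windows compared in this paragraph, so its p-values are a description. Within 50 bp the GC content averaged 38.1% at weaker summits and 32.6% at single summits. Whether base content accounts for the 2 sequences was not tested. The E-box CAGCTG was in 16 weaker-summit windows (8.29%), against 315 single-summit windows (3.35%), with an adjusted p of 0.0234 by logistic regression. The letters CACACA were in 22 (11.4%), against 571 (6.07%), with an adjusted p of 0.0482. Against the midpoint of the same interval, over 113 intervals with summits far enough apart that the windows did not overlap, CAGCTG was in 12 weaker-summit windows and 2 midpoint windows and TATAAA in 21 and 42 (exact McNemar tests, adjusted p = 0.102 and 0.0787), and 0 of 32 comparisons passed, with 2 at an unadjusted p under 0.05. Against a window 300 bp outside the weaker summit, away from the stronger, CAGCTG was in 12 and 7 windows (exact McNemar test, adjusted p = 0.676), CACACA in 13 and 13, and none of the 16 sequences passed at the weaker summit. At the stronger summit, TATAAA was more frequent than in its outer window (36 against 12, exact McNemar test, adjusted p = 0.00869) and GAGAGA less (2 against 15, adjusted p = 0.0376). The median GC content within 25 bp was 29.4% at the stronger summit and 45.1% at 300 bp outside it. Single summits also lay in DNA of lower GC content than their surroundings. The part of base content in these 2 differences was not tested.

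The second summit was found again in most replicate lists. Of the 193 intervals, 121, 166 and 167 held 2 or more summits of replicates 1, 2 and 3 (62.7%, 86.0% and 86.5%; mean 78.4 ± 13.6, SD, n = 3), against 6.39%, 12.5% and 13.9% of intervals with 1 summit. Replicate 1 held fewer than replicates 2 and 3. The intervals with 1 summit were narrower (median 349 bp, against 517 bp) and had a lower signal (median 406, against 1226 at the stronger summit). No share matched for width or signal is given. In 99 intervals all 3 replicates had 2 or more summits, in 67 they did in 2 replicates, in 23 in 1 and in 4 in none. A replicate summit lay within 50 bp of the weaker summit in 110, 160 and 160 intervals (74.3 ± 15.0%) and of the stronger in 160, 164 and 166 (84.6 ± 1.58%). Where both were found, the order of the signals was the same in 103 of 103, 155 of 157 and 156 of 158 intervals. The 174 intervals with a second summit only in the list of all replicates together held 2 or more replicate summits in 24.7%, 59.8% and 60.9%. All of these lists come from the same 3 samples as the choice, so the shares describe it and do not test it.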

How the data were processed

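Peak lists from anti-GFP ChIP-seq on 3 biological replicates, 1 list per replicate, 1 called on all of them and 1 IDR list, were used as deposited by the authors on build dm6, per the labels. The deposited signal value is the caller's enrichment at a summit, and the authors' q values, as −log10 q, were the same for every line of the IDR list and were not used. Neither the caller nor the IDR threshold is given in the sources used here, and the depth is unknown. Replicates were therefore compared by rank and counts, and intervals for shares cover counting error only. Replicates are numbered as separate biological samples in the labels.

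Starts came from Ensembl release 115 without transposable elements (18277 genes) and bases from RefSeq for the same assembly. Shares were tested by logistic regression with a likelihood-ratio test, and GC content by linear regression with an F test. Sequences within intervals were compared by the exact McNemar test, in windows that the second summit placed. All tests were two-sided with a threshold of 0.05 and Benjamini-Hochberg adjustment over sequences. Differences in distance came from linear regression and were not tested. Each interval was represented by its strongest summit. Found sequences were the 5 leading ones of 8 bases at single summits of 2L and 3L against flanks at 300 bp, less those that shared 6 bases with an earlier one. Members, lists, sequences and tests were chosen with earlier results of these data known.

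Named loci were the 12 strongest intervals, those with 3 summits, the 4 widest, the 4 narrowest, the 4 with the lowest second signal, the 4 strongest divergent pairs with a summit by each start, and up to 4 genes per list. A gene that this rule names is not reported here. The other genes were named after their values were seen. Printed stretches were longer than first planned. The list symbols calypso and Z4 were not resolved. Settings tried were covariates, width and signal limits, windows, kinds of start, replicate support and leaving out each replicate. Python 3.11.15 with NumPy 2.4.6, pandas 2.3.3, SciPy 1.17.1, statsmodels 0.14.6 and matplotlib 3.10.9 was used, and the tests were tested on simulated data.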

Additional observations from a re-analysis of the deposited data

How the results depend on the processing

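The odds ratios for a start, for starts of 2 or more genes and for a divergent pair stayed above 1 under every setting tried, and fell short of the threshold only in these cases: starts of 2 or more genes with starts within 250 bp (1.47, p = 0.0660, n = 193 and 9400) or inside the interval with width as covariate (1.41, p = 0.0692, n = 193 and 9400), and all 3 among the 37 intervals with summits over 210 bp apart (1.58, 1.14 and 1.00). With members redefined by the replicate lists and each replicate left out in turn, the ratios were 2.40 to 2.62, 2.22 to 2.72 and 2.10 to 2.52. These fits had no covariates, and a wider interval has more room for replicate summits. The main ratios with log2 width and log2 signal as covariates were 1.60, 1.52 and 1.64. The part of width in the higher ratios was not tested. The GC difference at the strongest summit of -2.99 points was -3.82 against single-summit intervals of like width, turned positive with covariates (0.206) and at the weaker summit (5.45), was -0.606 above the median signal and -1.68 for summits over 210 bp apart, and ranged from -1.38 to -0.197 points without single replicates, with -0.197 without replicate 1 (p = 0.625, n = 641 and 6716). At the midpoint and the weaker summit, single replicates left out gave -8.68 to -6.88 and -7.42 to -6.34 points. On the far side the range was 1.98 to 2.83, with an interval that held 0 without replicate 1, and 1.17 with covariates. The count of sequences that passed was 0, and 2 at the weaker summit or with 100 bp either side, and 2 at the stronger summit against outer windows. It was 0 without any 1 replicate. The counts at the weaker summit and against outer windows are a description, since the second summit placed these windows. The odds ratios of TATAAA and ATATATAA, 1.34 and 1.98, were 0.932 and 0.702 at the weaker summit, and 0.962 to 1.12 and 1.14 to 1.39 without single replicates, with 1.14 for ATATATAA without replicate 1. The cause of these changes was not tested. The share of intervals with 2 or more replicate summits, 78.4%, was 63.6% in the strongest part of each replicate list and 74.4% to 86.3% without single replicates, and that of weaker summits found again, 74.3%, was 59.1% within 25 bp and 69.9% to 82.9%. The order of the signals was kept in 98.7% to 99.4%. No paired analysis was possible because there was 1 group. Depth is unknown, so a summit missing from a list shows only that none was listed.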
